A study of Rattus norvegicus with 28 samples.

Results

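The comparison described here is the 1 h response of Med14 S983A mutant cells to exendin-4 (Ex-4). It rests on 4 RNA-seq libraries of the 28 in the series, 2 of untreated cells (CON) and 2 of cells given 10 nM Ex-4 for 1 h, which were found by genotype, agent, hour and replicate number in the column names of the deposited expression table. Of the 17455 gene symbols in that table, 10275 averaged 1 TPM or more over all 28 libraries and were tested. TPM is a transcript's share of a library's reads per exonic length, scaled to one total for every library. The cells were INS-1, a rat insulinoma line that makes insulin and carries the receptor for glucagon-like peptide-1 (GLP-1), of which Ex-4 is a peptide agonist. Med14 is the scaffold subunit of Mediator, the complex that links DNA-bound activators to RNA polymerase II, and in the mutant a serine that protein kinase A (PKA) phosphorylates had been changed to alanine by genome editing with a repair template. Edited cells were sorted as single cells and grown as clones. The study worked with 2 S983A lines made independently, and the sources used here do not say which line gave which library, so what belongs to a clone and what belongs to the edit cannot be told apart. All groups used here were placed in serum-free medium before treatment. Mutant cells were used as CON and after 10 nM Ex-4 for 1 h, 8 h or 16 h. They were also used after 10 µM forskolin (FSK), a direct activator of adenylyl cyclase, for 1 h. Wild-type (WT) cells were used as CON or after 10 nM Ex-4 for 1 h. Each group had 2 libraries, which the study treats as biological replicates. The p-values measure the spread between replicates pooled over all 14 groups of the series, and not that of the compared groups alone. CON carries no hour in its label, so 1 h of handling and 1 h of Ex-4 cannot be told apart. The same holds for 8 h and 16 h, which have no CON of their own.

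The GLP-1 receptor couples to the stimulatory G protein, which raises cyclic AMP in beta cells and frees the catalytic subunit of PKA. PKA phosphorylates the activator CREB, and its coactivators of the CRTC family move to the nucleus when salt-inducible kinases are inhibited, so that genes with a cAMP response element near their start are transcribed within minutes. Many of the earliest of these genes encode transcription factors or act against the signal that raised them, among them phosphodiesterases, which break down cyclic AMP, regulators of G protein signalling, which shorten receptor signalling, and dual-specificity phosphatases, which switch off MAP kinases. The question the comparison bears on is what this early transcriptional response looks like when Med14 cannot be phosphorylated at that serine.

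The letters that CREB recognises can be shown at some of the leading genes. The 250 bases before the start were read from the RefSeq promoter table, build GRCr8, 5′ to 3′ on the gene's strand, and capitals mark TGACG or its reverse complement CGTCA. The full element, TGACGTCA, reads alike on both strands and holds TGACG on each of them, overlapping. Crem is shown at those 2 of its 3 listed starts that hold the full element, Nr4a1 for its 4 copies of the shorter letters, Dusp1 as a gene with the full element, and Ephb3 as the gene whose response differed most from WT.
Crem, the second listed start (chr17:58984547-58984796, plus strand): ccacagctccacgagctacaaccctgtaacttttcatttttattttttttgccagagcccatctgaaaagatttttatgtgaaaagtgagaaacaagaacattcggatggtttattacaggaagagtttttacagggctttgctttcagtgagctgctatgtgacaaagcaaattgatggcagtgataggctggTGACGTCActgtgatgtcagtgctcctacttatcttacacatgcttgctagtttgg
Crem, the third listed start (chr17:58985240-58985489, plus strand): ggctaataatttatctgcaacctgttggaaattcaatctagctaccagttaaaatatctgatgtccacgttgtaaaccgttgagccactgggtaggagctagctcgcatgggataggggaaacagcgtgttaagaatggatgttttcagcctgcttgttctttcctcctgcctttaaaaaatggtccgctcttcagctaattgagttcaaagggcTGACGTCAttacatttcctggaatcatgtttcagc
Nr4a1 (chr7:134259888-134260137, plus strand): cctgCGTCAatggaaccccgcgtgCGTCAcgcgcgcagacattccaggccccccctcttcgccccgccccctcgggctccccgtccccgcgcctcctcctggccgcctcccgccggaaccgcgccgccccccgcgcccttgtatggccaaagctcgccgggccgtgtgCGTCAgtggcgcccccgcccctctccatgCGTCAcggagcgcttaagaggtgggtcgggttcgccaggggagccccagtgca
Dusp1 (chr10:17184603-17184852, plus strand): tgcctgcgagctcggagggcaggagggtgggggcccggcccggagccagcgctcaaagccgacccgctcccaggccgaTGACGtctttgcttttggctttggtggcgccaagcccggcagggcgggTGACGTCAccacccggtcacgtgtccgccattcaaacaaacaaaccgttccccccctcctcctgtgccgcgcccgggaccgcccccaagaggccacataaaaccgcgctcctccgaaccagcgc
Ephb3 (chr11:93363776-93364025, minus strand): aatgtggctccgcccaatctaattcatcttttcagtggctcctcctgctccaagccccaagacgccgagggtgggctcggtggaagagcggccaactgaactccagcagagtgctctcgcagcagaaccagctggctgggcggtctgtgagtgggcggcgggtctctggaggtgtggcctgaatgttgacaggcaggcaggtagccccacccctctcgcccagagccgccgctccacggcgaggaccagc
TGACGTCA was found in 1.59% and TGACG on either strand in 18.2% of the 33469 promoters in the table, over the same 250 bases. The matches of Nr4a1 began at positions -246, -226, -82 and -53 from the start, and those of Dusp1 at -172, -124 and -121. Sik1 held 2 such matches, at -191 and -180, Junb 1 at -155, Rgs2 1 at -216, Nfil3 1 at -9 and Errfi1 1 at -56. In the same window Ephb3, Fosl2, Id4, Fosb and Per1 had none. A match is a description of these letters and not a binding site. Only 79.9% of the genes that rose and 72.8% of those that fell had an entry in the table, so no share was taken over either set.

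The 4 libraries held 46397570 to 54804123 fragments, recovered from the TPM values and summed over all listed transcripts and the spiked-in ERCC RNAs. A fragment shared by several transcripts may count more than once in this sum. The ERCC RNAs made up 0.786% to 0.864% of it. Replicates correlated at 0.998 (CON) and 0.999 (1 h Ex-4) on the log2 scale across genes, and their fragment counts differed by more than sampling noise in both groups, so each pair was counted as 2 libraries. Chi-square divided by its degrees of freedom was 8.91 for CON and 6.35 for 1 h Ex-4. Of 10 beta cell markers 9 were analysed and all of these were above 1 TPM in every library, with Ins1 at 38834 and 42395 TPM in CON and 40002 and 38814 TPM after 1 h Ex-4. The summed level of 7 exocrine markers stayed between 0.487 and 0.89 TPM, with Prss1 at 0 throughout. That of 6 markers of other islet cells was between 6.13 and 7.16 TPM, most of it Gcg. That of 10 fibroblast, endothelial and blood markers was between 0.748 and 0.922 TPM, with Ptprc and Col3a1 at 0 throughout. Med14 itself stood at 19.6 and 20.3 TPM in the CON libraries and at 22.9 and 21 TPM after 1 h Ex-4. That level does not check the edit, which leaves the transcript in place.

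After 1 h of Ex-4, 209 genes were higher and 103 were lower in Med14 S983A cells, which is 2.03% and 1.00% of the 10275 tested and 3.04% in all. A gene was called where the Benjamini-Hochberg adjusted p of limma was under 0.05 and the fold above 1.5, both on the scale of log2(TPM + 1), which understates changes of genes with low levels. The genes that rose had a median log2 change of 1.01 and 39 of them exceeded 2, whereas the genes that fell had a median of -0.73 and 12 were below -1. The median log2 change of all genes tested was -0.04. Without the fold minimum, 26.2% of all genes tested had an adjusted p under 0.05 by limma, and 35.6% had an unadjusted p under 0.05. Among genes that averaged 5 TPM or more over the 4 libraries of the comparison, the 10 largest rises were those of Fosl2, Nr4a1, Crem, Sik1, Nr4a3, Rgs2, Fosb, Id4, Fos and Ephb3. Txnip, Myc, Klf6, Snai2, Kctd11, Neurod1, Ovol2, Mir24-1 and Gata3 were 9 of the 10 largest falls by the same rule. With edgeR on recovered fragments and library sizes from the ERCC RNAs the split was 239 higher and 196 lower, and no gene called in the table as deposited was called in the opposite direction under any alternative run.

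**Figure D1:**
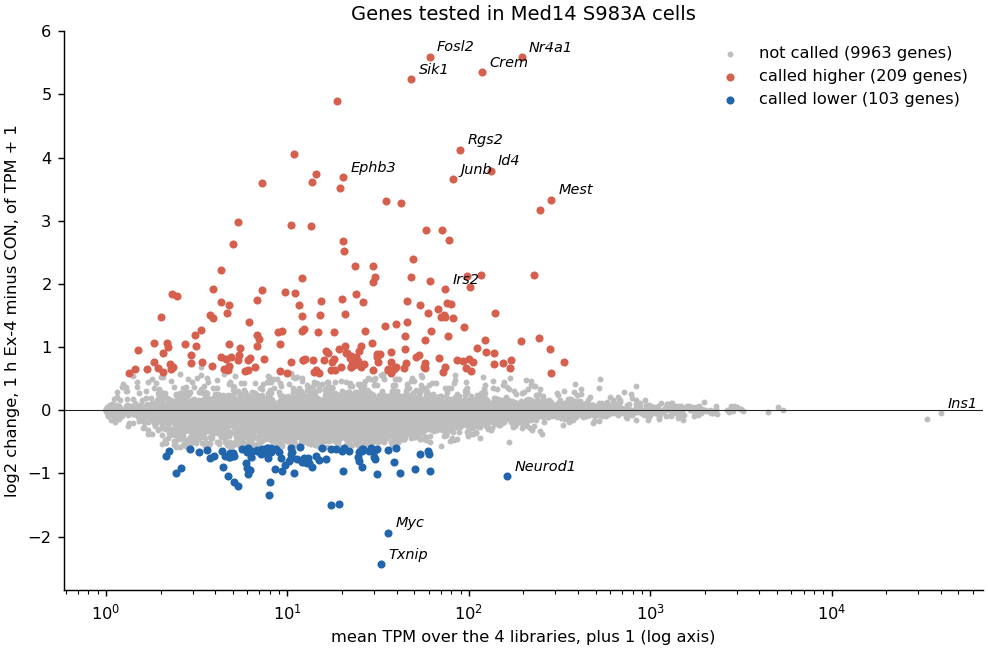
Log2 change after 1 h Ex-4 in Med14 S983A cells (vertical axis, of TPM + 1) against the mean TPM of the 4 libraries plus 1 (horizontal log axis), with 1 point for each of the 10275 genes tested. The 209 genes called higher (red) reach 5.60 at Fosl2, while the 103 called lower (blue) reach -2.44 at Txnip and mostly lie close to the fold limit.

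AP-1 subunits, the FOS and JUN family proteins that bind DNA as dimers, rose as a group, with 8 of 10 measured members called higher, none lower and a median log2 change of 1.45. Fosl2 (chr6:25598936-25616995 in rn6, minus strand), a FOS-related subunit, was at 1.35 and 1.57 TPM in the CON libraries and at 123 and 113 TPM after 1 h Ex-4, a log2 change of 5.60 ± 0.08 (SE, adjusted p = 3.54e-25). Fosb went from 0.228 and 0.228 to 18.7 and 20.3 TPM (4.06 ± 0.08, adjusted p = 1.78e-22), and its paralog Fos (chr6:109300433-109303299) from 0.993 and 0.958 to 23.1 and 28.1 TPM (3.75 ± 0.10). For each of these genes both treated libraries lay far above both CON libraries, and the replicates were close to each other. Junb, the JUN protein that accompanies FOS early, rose from 10.2 and 11.7 to 133 and 169.5 TPM, a log2 change of 3.66 ± 0.08. Jun (15.5 and 16.1 to 32 and 34.2 TPM) and Jund (115 and 132 to 199.8 and 229.6 TPM) rose by 1.02 and 0.80, and Jund was the most abundant subunit in CON. Fosl1 remained scarce, with 0 and 0.044 TPM in CON and 0.902 and 1.04 TPM after Ex-4, although it was called (log2 change 0.95, adjusted p = 2.22e-07). Atf3, a stress-induced member that often represses, increased from 3.36 and 2.94 to 15 and 13.4 TPM. Batf3 and Jdp2 were not called, with log2 changes of -0.04 and -0.30.

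The NR4A orphan nuclear receptors, which act without a known hormone and are classical cAMP targets, were all 3 called higher. Nr4a1 (chr7:142912309-142920215, plus strand) was at 6.53 and 7.36 TPM in CON and at 353 and 412 TPM after 1 h Ex-4 (5.59 ± 0.08, adjusted p = 3.54e-25), which made it the most abundant of the family. Nr4a3 climbed from 0.301 and 0.148 to 35.7 and 35.2 TPM (4.90 ± 0.11) and Nr4a2 from 2.13 and 2.17 to 33.1 and 36.8 TPM (3.51 ± 0.09). The treated levels of Nr4a2 and Nr4a3 overlapped each other, whereas in CON Nr4a2 stood above Nr4a3 in both libraries.

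Among 9 measured genes for CREB, its relatives and its coactivators only Crem was called. Crem, whose internal promoter makes the inducible repressor ICER, rose from 5.48 and 3.97 TPM to 232 and 228 TPM, a log2 change of 5.35 ± 0.08 (adjusted p = 4.18e-25). The table holds the transcript at chr17:57074525-57090888 on the plus strand, and it does not separate activator from repressor forms. Creb1 was at 4.35 and 3.77 TPM in CON and 4.45 and 2.87 TPM after Ex-4 (adjusted p = 0.512), Atf1 at 122 and 115 and 118 and 114 TPM, and Crtc2 at 72.5 and 77.1 and 70.4 and 66.9 TPM. The list that runs from the GLP-1 receptor to PKA had a median log2 change of -0.01. Against 3.04% of all genes tested, 0 of its 19 measured members were called in either direction by limma. Of these, 5 had an unadjusted p under 0.05, and the adjusted p of all 5 was also under 0.05, so that they missed the fold minimum alone. Tests by edgeR and DESeq2 on recovered fragments each called 1 higher, Akap12, an anchor of PKA (68.4 and 65.2 to 101 and 97.8 TPM). Glp1r itself was at 88.9 and 89.1 TPM in CON and 86.6 and 87.2 TPM after 1 h Ex-4 (log2 change -0.03, adjusted p = 0.576).

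**Figure D2:**
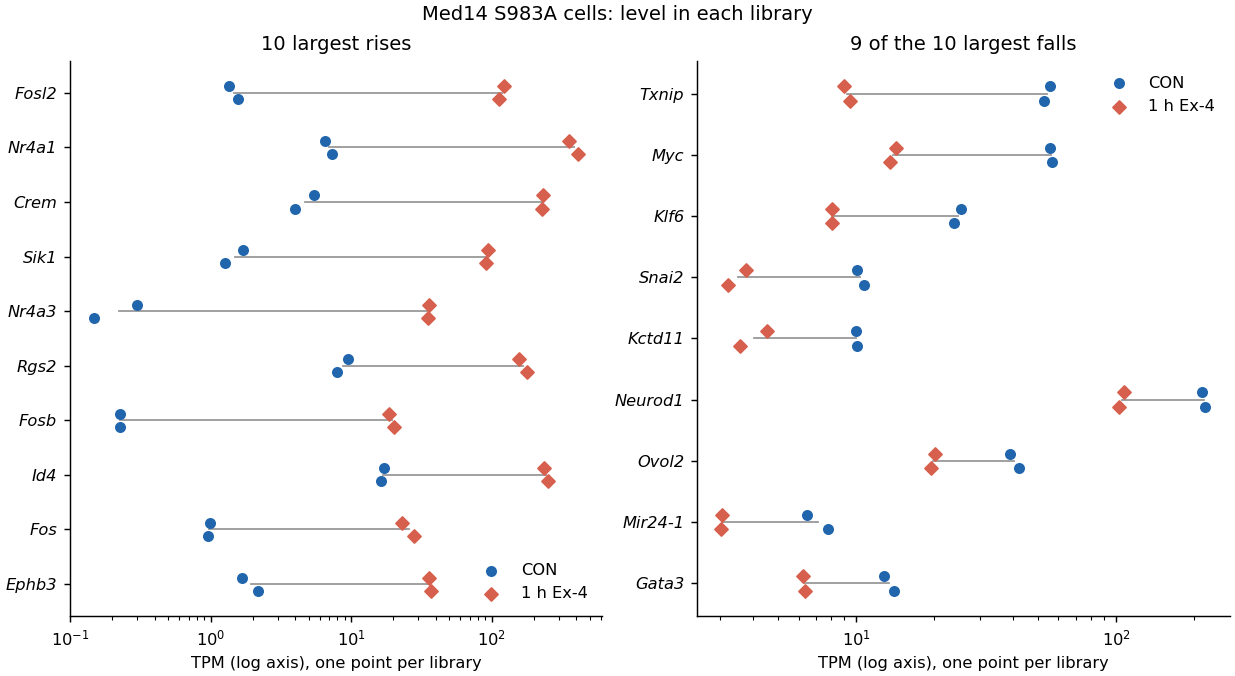
TPM in each library (horizontal log axes) of the 10 genes that rose most and of 9 of the 10 that fell most in Med14 S983A cells, with circles for the 2 CON libraries, diamonds for the 2 libraries of 1 h Ex-4 and lines joining the group means. In all 19 genes the treated libraries lie wholly on one side of the CON libraries, from Nr4a1 at 353 and 412 TPM down to Mir24-1 at 3.05 and 3.02 TPM.

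Genes that act against the signal rose at several steps. Sik1, a kinase that keeps CRTC coactivators out of the nucleus, was at 1.71 and 1.27 TPM in CON and 94.4 and 91.7 TPM after Ex-4 (5.24 ± 0.10, adjusted p = 3.26e-23), while Sik3 stayed at 22.1 and 22 and 21.7 and 20.6 TPM. Rgs2 (chr13:60846458-60849061, minus strand), which speeds the hydrolysis of GTP on G protein alpha subunits, went from 9.49 and 7.93 to 156 and 179.7 TPM (4.12 ± 0.08). Of 18 measured genes for RGS proteins, receptor kinases and arrestins, Rgs16 (35.3 and 34.8 to 116 and 114 TPM) was the only other one called, and the list's median was -0.09. Of 16 phosphodiesterase genes 2 rose, Pde4d from 6.44 and 5.93 to 17.1 and 16 TPM and Pde4b from 3.49 and 3.4 to 6.98 and 6.46 TPM, both of the cAMP-specific PDE4 family. Pde10a, which hydrolyses cAMP and cGMP, had overlapping levels of 7.71 and 7.85 TPM in CON and 8.68 and 7.61 TPM after 1 h Ex-4 (log2 change 0.06, adjusted p = 0.694). Of 17 dual-specificity phosphatase and Sprouty genes 9 were higher and none lower, with a median of 0.69. Dusp1, a nuclear phosphatase of p38, JNK and ERK, led them with 17.3 and 16.9 TPM in CON and 74.3 and 79.5 TPM after Ex-4 (2.10 ± 0.05, adjusted p = 6.72e-21). Dusp5 (18.1 and 19.4 to 49.9 and 47.3 TPM), Dusp4 (3.32 and 3.44 to 8.72 and 8.41 TPM) and Spry4 (1.85 and 2.35 to 5.9 and 4.93 TPM), an inhibitor of receptor tyrosine kinase signalling, followed. Dusp6 rose from 2.05 and 1.8 to 3.99 and 3.5 TPM and Dusp3 from 14.8 and 13.3 to 24 and 22.7 TPM.

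Other early transcription factors went in both directions. Of 20 measured EGR, IER, KLF and related genes, 9 were higher and 3 lower, with a median log2 change of 0.46. Egr1, a zinc-finger factor induced by many stimuli, rose from 4.36 and 4.56 to 33.9 and 34.1 TPM (2.68 ± 0.09, adjusted p = 1.85e-18), and Klf4 from 9.84 and 10.9 to 43.2 and 53.7 TPM. Btg2, an antiproliferative cofactor of mRNA deadenylation, went from 82.8 and 85.5 to 356 and 391 TPM, and its relatives Btg1 (155 and 148 to 317 and 353 TPM) and Tob1 (53.5 and 52.9 to 134 and 134 TPM) rose as well. Together with Pnrc1, whose call was lost without 1 h Ex-4 replicate 2 (log2 change 0.54), these made 4 of 12 regulators of mRNA decay and transcription elongation, none of which fell. Maff, Csrnp1, Gadd45b, Egr4 and Ier2 complete the genes that rose, by log2 changes of 2.92, 1.91, 1.72, 2.23 and 0.81. Myc (chr7:102586313-102591239), the growth-promoting factor, dropped from 55.5 and 56.5 to 14.2 and 13.5 TPM (-1.94 ± 0.05, adjusted p = 4.55e-21). Klf6 fell from 25.4 and 23.8 to 8.05 and 8.07 TPM (-1.50 ± 0.06) and Ier5 from 15.4 and 15.1 to 8.99 and 8.17 TPM. ID proteins, which lack a DNA-binding region and inactivate basic helix-loop-helix partners, were higher for all 4 genes, and the 3 HES and HEY genes measured were not called. Id4 had 17.2 and 16.4 TPM in CON and 237 and 253 TPM after Ex-4 (3.79 ± 0.06), Id2 3.72 and 5.46 and 14.3 and 19 TPM, Id1 21.7 and 26.6 and 65.6 and 64.8 TPM, and Id3 33.5 and 31.4 and 54.2 and 56.2 TPM. The gap between the groups was narrowest for Id3, and no treated library of the 4 genes reached down to CON.

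Beta cell transcription factors went in both directions, with 1 of 16 called higher, 2 lower and a median of -0.10. Of the 16 genes, 13 had an adjusted p under 0.05 by limma, most of them below the fold minimum. Neurod1, a helix-loop-helix activator of the insulin genes, was at 215 and 221 TPM in CON and 108 and 102 TPM after 1 h Ex-4 (-1.05 ± 0.05, adjusted p = 1.43e-14). Nkx2-2 increased from 99.5 and 107 to 174 and 169.8 TPM, and Pdx1 was at 324 and 342 and 375 and 380.1 TPM with no call. Insulin itself showed no call at this hour, with Ins2 at 32620.4 and 37516 TPM in CON and 31531 and 31817 TPM after Ex-4 (log2 change -0.14, adjusted p = 0.0655) and Ins1 at a log2 change of -0.04 (adjusted p = 0.634). Ins1 and Ins2 are close in sequence, so their split depends on how shared reads were counted. Of 15 granule genes only Vgf, the precursor of several secreted peptides, was called (51.9 and 59.4 to 92.5 and 88.2 TPM). Of 17 genes for glucose sensing and secretion 0 were called by limma, edgeR or DESeq2, with 7 at an unadjusted and 5 at an adjusted p under 0.05. Over all genes tested limma called 3.04%. Among 9 measured neuropeptide and activity genes 4 were higher, and none lower. Cartpt, the precursor of the CART peptide, went from 10.9 and 11.6 to 39.7 and 38.4 TPM, Tac1, the substance P precursor, from 8.52 and 7.75 to 28.2 and 31.5 TPM, Cck from 33.1 and 38.5 to 66.6 and 63.4 TPM, and Nptx1 from 3.12 and 3.12 to 8.89 and 7.95 TPM.

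Irs2, the insulin receptor substrate on which beta cell growth and survival depend and a known CREB target, rose from 30.1 and 30.2 to 118 and 115 TPM (1.92 ± 0.05, adjusted p = 8.82e-20). It was the only one called among 15 measured genes of insulin receptor signalling. Ppargc1a, a coactivator of mitochondrial genes, increased from 1.89 and 2.27 to 11 and 7.91 TPM, with a wider gap between its treated replicates than for the genes above. The other 4 genes of the PGC-1 and estrogen-related receptor list were not called. Of 15 circadian clock genes 3 rose and 1 fell. Per1 went from 13 and 13.2 to 98.8 and 102 TPM (2.85 ± 0.06), Nfil3, a repressor of D-box genes, from 7.05 and 6.76 to 72.3 and 79.9 TPM (3.28 ± 0.05) and Cry2 from 37.1 and 37 to 119.7 and 123 TPM. Nr1d1, the haem-binding repressor REV-ERB alpha, dropped from 24.9 and 26.3 to 12 and 13.5 TPM. Txnip (chr2:198683168-198686968), an arrestin-like protein that binds thioredoxin and restrains glucose uptake, was the gene with the largest fall, from 55.9 and 52.9 to 8.95 and 9.45 TPM (-2.44 ± 0.08, adjusted p = 7.61e-18). Its relatives Arrdc3 (17.5 and 16.3 to 10.2 and 9.38 TPM) and Arrdc2 (7.41 and 8.32 to 4.39 and 4.58 TPM) fell too, and Arrdc4 moved from 94.5 and 88 to 64.8 and 64.7 TPM, a log2 change of -0.49 that did not pass the fold limit. In the BCL2 family the cell death activators Bcl2l11 and Bbc3 moved in opposite directions, Bcl2l11 from 16.1 and 16.2 to 30.2 and 29.2 TPM and Bbc3 from 12.1 and 16.7 to 7.27 and 7.9 TPM.

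**Figure D3:**
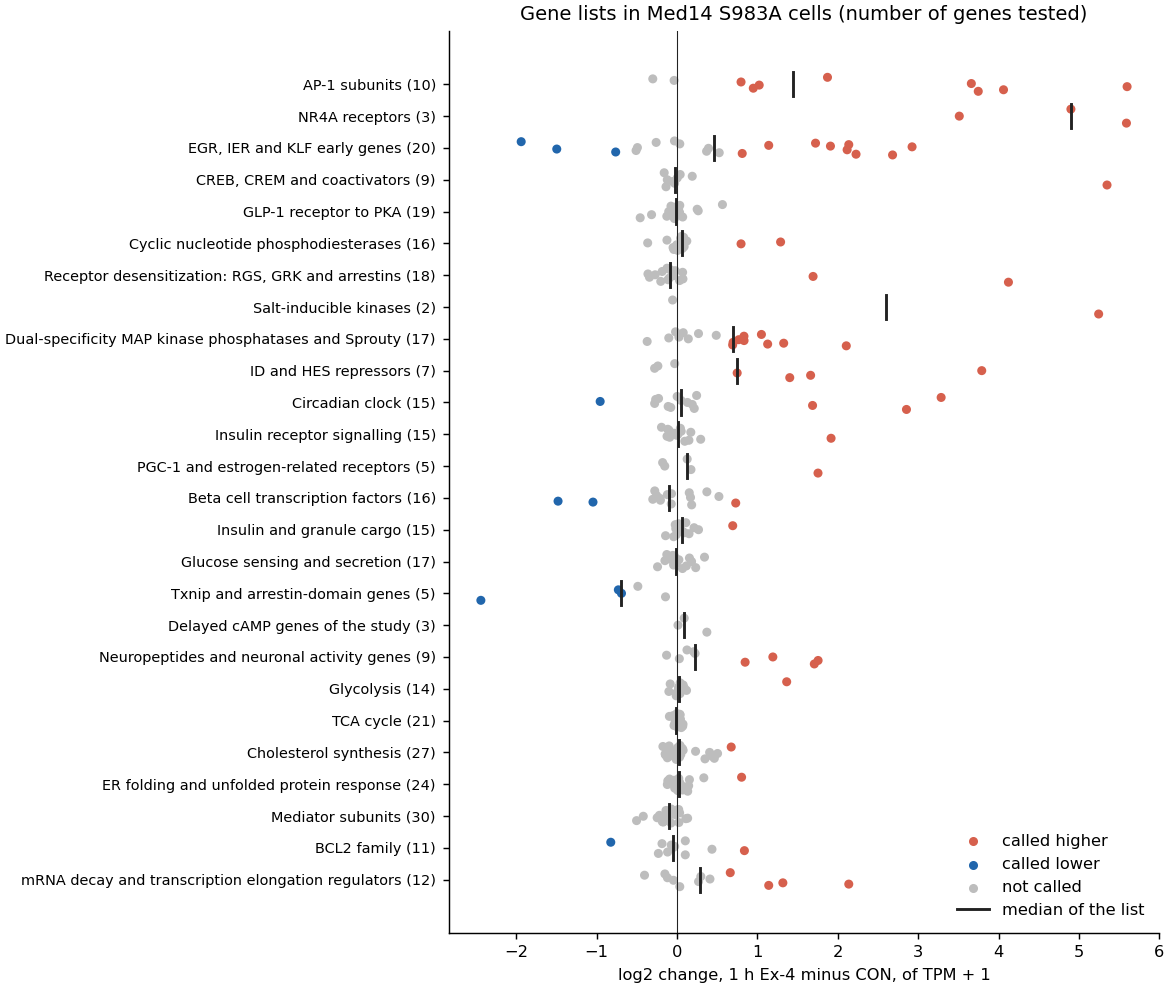
Log2 change after 1 h Ex-4 in Med14 S983A cells (horizontal axis, of TPM + 1) of every tested gene of 26 lists, with the number of genes tested in brackets and a black bar at the list's median. The NR4A list has its median at 4.90 and the AP-1 list at 1.45, while the medians of the TCA cycle, Mediator and GLP-1 receptor to PKA lists lie at -0.01, -0.10 and -0.01.

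The lists of the TCA cycle, glycolysis, cholesterol synthesis, endoplasmic reticulum folding with the unfolded protein response, and Mediator had at most 1 called gene each. Over all genes tested 3.04% were called, so few calls in lists of this size do not set them apart. Of 21 TCA cycle genes and 30 Mediator subunits 0 were called by limma, edgeR or DESeq2, with 2 and 13 at an unadjusted p under 0.05, 0 and 8 at an adjusted p under 0.05, and medians of -0.01 and -0.10. Of 14 glycolytic genes Ldhb was the only one called (20.9 and 21.4 to 55.9 and 56.1 TPM). Of 27 cholesterol synthesis genes it was Insig1 (137 and 122 to 207 and 207 TPM), which retains the SREBP activator in the endoplasmic reticulum. Of 24 genes of endoplasmic reticulum folding and the unfolded protein response it was Trib3 (7.51 and 8.27 to 15.3 and 13.7 TPM). Each of these 3 rose. Among the genes that the study names as late responders to cAMP, 0 of 3 were called at 1 h by limma and 1 had an unadjusted and an adjusted p under 0.05, with Kdr at 0.081 and 0.043 TPM in CON and 0.295 and 0.455 TPM after Ex-4, Osbpl6 at 4.41 and 4.19 and 4.76 and 3.95 TPM, and Plat at 0.058 and 0.015 and 0.044 and 0.163 TPM. Kdr, a receptor of vascular endothelial growth factor, was called higher by edgeR and DESeq2 on recovered fragments. The lists for other islet cells and for fibroblast, endothelial and blood cells had 1 tested gene each, and neither was called by any of these tools.

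Several hairpin loci of microRNAs were among the called genes, and these libraries read the long primary transcript and not the mature microRNA. Mir132 (chr10:62014995-62015095 in rn6) went from 0.181 and 0 to 9.9 and 14.9 TPM (adjusted p = 9.49e-13), and its neighbour Mir212 (chr10:62014702-62014812), which was listed at 0 in both CON libraries, reached 2.0 and 3.25 TPM (adjusted p = 7.49e-07). These 2 loci were picked after their values were seen, because they lie side by side and because their main mature products share a seed, bases 2 to 8, which is in capitals below as RefSeq gives it.
miR-132-3p: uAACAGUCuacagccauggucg
miR-212-3p: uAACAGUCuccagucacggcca
Mir24-1 (chr17:823968-824035) fell from 6.47 and 7.81 to 3.05 and 3.02 TPM, a log2 change of -1.01. On recovered fragments its log2 change was -1.15 by edgeR, -1.2 by edgeR with ERCC library sizes and -1.14 by DESeq2, and the adjusted p rose to 0.0576, 0.15 and 0.197. Mir24-2, another Mir24 locus, was called higher by limma, with a log2 change of 0.69 and an adjusted p of 0.0454. Over all 47 tested hairpin loci 3 were higher and 4 lower, with a median log2 change of -0.08. Of all genes tested, 2.03% were higher and 1.00% lower.

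The called genes covered fewer bases of the genome than all genes tested, which is given as a description with no test. Their median genomic span was 8956 bases for the 209 that rose and 5452 bases for the 103 that fell, against 20783 bases for all genes tested, while the medians of the exonic length were 2196, 2009 and 2142 bases. Genes of more than 50000 bases made up 8.13% of those that rose, 2.91% of those that fell and 25.2% of all. Zinc-finger genes with Zfp, Znf, Zkscan or Zbtb symbols, a family put together with earlier results known, had 9 lower and 3 higher of 192 tested. Of all genes tested, 1.00% were lower and 2.03% higher. The median of these zinc-finger genes was -0.20, below the -0.04 of all genes. As the family was picked this way, its count is a description only.

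The same exposure in WT cells shows where the mutant's response differed, and the difference was tested for each gene as an interaction. Of the 10275 genes, 35 had a more positive log2 change in Med14 S983A cells than in WT cells and 34 a more negative one, 0.341% and 0.331% of those tested and 0.672% in all. Ephb3, an Eph receptor tyrosine kinase that binds ephrin-B ligands, differed most. It was at 1.67 and 2.18 TPM in mutant CON and 36.1 and 37.1 TPM after 1 h Ex-4, against 1.17 and 1.08 TPM in WT CON and 1.24 and 1.22 TPM in WT after Ex-4, so that the log2 change was 3.69 in the mutant and 0.07 in WT (difference 3.62 ± 0.12, adjusted p = 6.06e-17). In WT the change was not called (adjusted p = 0.584), and both treated mutant libraries lay above the other 6. Errfi1, a feedback inhibitor of the EGF receptor, also had no called change in WT, with 45.8 and 46.3 and then 108 and 103 TPM in the mutant and 33.7 and 33.2 and then 35.9 and 33.5 TPM in WT (difference 1.13 ± 0.06, adjusted p = 6.95e-12). Crem rose in both genotypes, by 5.35 in the mutant and 3.89 in WT, from a lower CON level in the mutant (5.48 and 3.97 against 11.7 and 10.6 TPM) to a higher treated one (232 and 228 against 172 and 186 TPM). For Id4 the log2 change was larger in the mutant (3.79 against 2.58) while the treated level was lower (237 and 253 against 268 and 281 TPM), and so was CON (17.2 and 16.4 against 42.2 and 47.9 TPM). The same held for Hbegf, an EGF receptor ligand, with CON at 5.64 and 5.2 TPM in the mutant and 44.3 and 42.5 TPM in WT and treated levels of 59.8 and 65.3 and 217 and 218 TPM (difference in log2 change 1.01 ± 0.09). Among the 35 genes, the mean CON level was lower in the mutant than in WT for 27, and the treated mean was lower for 17. The genes were picked by these same values, which tilts such counts in advance. Over all genes tested, the median log2 difference of mutant CON from WT CON was -0.07.

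The strongest shortfall was that of Cebpd, a C/EBP transcription factor of the acute-phase response. It rose from 7.48 and 7.98 to 17.8 and 21.6 TPM in Med14 S983A cells and from 7.62 and 6.7 to 82.3 and 83.5 TPM in WT cells, a difference in log2 change of -2.12 ± 0.11 (adjusted p = 1.22e-12) with nearly equal CON levels. Gem, a small GTPase that inhibits voltage-gated calcium channels, reached 22.5 and 26.3 TPM in the mutant and 56.2 and 67.5 TPM in WT from similar CON levels (-1.13 ± 0.12). Sertad2, a transcriptional coregulator, showed no call in the mutant (3.6 and 3.86 and then 4.13 and 3.44 TPM) and went from 4.04 and 3.9 to 11.6 and 10.6 TPM in WT (-1.27 ± 0.17). Pim1, a serine/threonine kinase downstream of cytokines, went from 19.6 and 23 to 15.9 and 16 TPM in the mutant and from 13.2 and 11.3 to 20.5 and 19.9 TPM in WT (-1.07 ± 0.12). The fall of Myc was deeper in the mutant, 55.5 and 56.5 to 14.2 and 13.5 TPM, than in WT, 69.4 and 70.5 to 45.5 and 43.8 TPM (-1.30 ± 0.07, adjusted p = 1.08e-12). Dusp1 rose less in the mutant, by 2.10 against 2.82 (-0.71 ± 0.07), from similar CON levels of 17.3 and 16.9 and 16.6 and 16.5 TPM. Arhgap45 went the other way, with a more positive log2 change in the mutant than in WT (difference 2.96 ± 0.14). It was called in the mutant, from 0.136 and 0.263 to 7.32 and 9.68 TPM. This gene lies outside the rule on levels and was picked after its values were seen. Its annotated span overlaps Ptbp1, Palm and other genes on the same strand, so its reads are uncertain. The 34 genes with a more negative change were picked by the same values, so counts of their levels are tilted in advance. Of these 34, 32 had a lower treated mean in the mutant than in WT, and 18 had a lower CON mean. Several AP-1 genes were among them, Jund (-0.61), Fosl1 (-0.77) and Fosb (-0.71), but the call for Fosl1 and Fosb was lost in the tests on recovered fragments. The call for Jund was lost without mutant 1 h Ex-4 replicate 1 (-0.51), mutant CON replicate 2 (-0.51), WT 1 h Ex-4 replicate 2 (-0.54) or WT CON replicate 1 (-0.53), that for Fosl1 without WT 1 h Ex-4 replicate 2 (-0.60), and all these values lie near the fold limit. Kdr differed by -0.77 on this scale, and that sign turned in those tests.

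**Figure D4:**
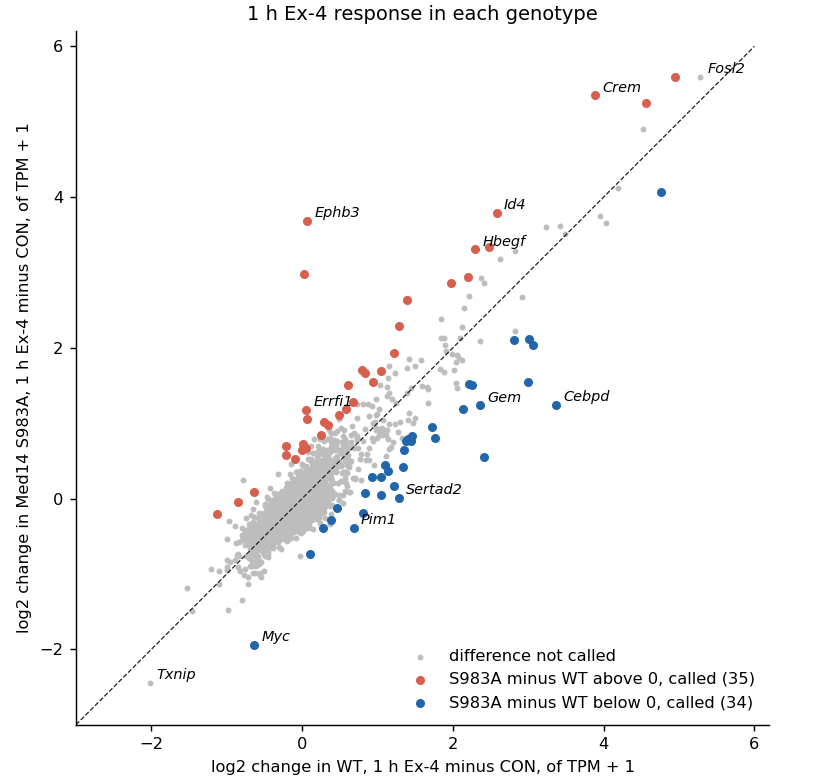
Log2 change after 1 h Ex-4 (of TPM + 1) in WT cells (horizontal axis) and in Med14 S983A cells (vertical axis), with 1 point for each of the 10275 genes tested and a dashed line where both are equal. Most genes follow the line, and the 69 with a called difference (red above 0, blue below 0) include Ephb3 at 0.07 in WT and 3.69 in the mutant and Cebpd at 3.36 and 1.24.

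Several leading genes had no called difference between the genotypes. Fosl2 changed by 5.60 in the mutant and 5.28 in WT (difference 0.32 ± 0.11, adjusted p = 0.291), Rgs2 by 4.12 and 4.19 (difference -0.07 ± 0.11), and Irs2 by 1.92 and 1.99 (difference -0.07 ± 0.08). Fos (3.75 and 3.96), Junb (3.66 and 4.04) and Txnip (-2.44 and -2.02) had no called difference either. A missed threshold does not show that these responses were the same. Nr4a1 and Sik1 were called larger in the mutant, by 0.64 ± 0.12 and 0.68 ± 0.14, from CON levels below WT (6.53 and 7.36 against 17.3 and 18.4 TPM and 1.71 and 1.27 against 3.91 and 3.93 TPM). The call for Nr4a1 was lost without mutant 1 h Ex-4 replicate 2 (0.53), mutant CON replicate 1 (0.57) or WT 1 h Ex-4 replicate 1 (0.52), and that for Sik1 without mutant CON replicate 2 (0.55). The untreated genotypes differed widely, since 1999 genes, 19.5% of those tested, had CON means more than 1.5-fold apart on the log2(TPM + 1) scale, among them Ins2 with 32620.4 and 37516 TPM in the mutant and 2885 and 2991 TPM in WT, and Gcg with 6.09 and 6.55 and 165 and 169 TPM. The part of these CON differences in the differing responses was not tested. The contrasts with WT, FSK and 8 h all use the 2 libraries of 1 h Ex-4, so they are not independent of each other.

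FSK, which raises cAMP without the receptor, was given to the same mutant cells for the same hour, and it left all 3 NR4A genes and 8 of 10 AP-1 genes higher than Ex-4 did, and none of either list lower. In the direct contrast of the agents, 149 genes were higher and 162 lower after Ex-4 than after FSK, 1.45% and 1.58% of those tested and 3.03% in all. Junb was at 133 and 169.5 TPM after Ex-4 and 1094 and 1039 TPM after FSK (log2 difference -2.82 ± 0.08, adjusted p = 2.60e-18), Klf4 at 43.2 and 53.7 and 374 and 391 TPM (-2.96 ± 0.08), and Fosb at 18.7 and 20.3 and 208 and 211 TPM (-3.36 ± 0.08). Fosl1, nearly silent with Ex-4 at 0.902 and 1.04 TPM, reached 12.8 and 12 TPM with FSK, and Rasl11a, a small GTPase, stood at 2.16 and 2.47 and 23.3 and 21 TPM. The gap was narrower for Crem (232 and 228 against 409.5 and 479.5 TPM, -0.94 ± 0.08) and Irs2 (118 and 115 against 158 and 169 TPM, -0.48 ± 0.05), and that of Irs2 did not pass the fold limit. Txnip, Myc and Exo5, which Ex-4 lowered, stood lower still with FSK. Txnip was at 8.95 and 9.45 TPM after Ex-4 and 3.02 and 2.55 TPM after FSK (1.43 ± 0.08), Myc at 14.2 and 13.5 and 5.26 and 5.6 TPM (1.21 ± 0.05), and the exonuclease gene Exo5 at 8.56 and 7.38 and 3.17 and 2.84 TPM. Rbm48 (10.7 and 10.1 against 3.84 and 3.76 TPM) and Alkbh4 (10.1 and 9.81 against 3.33 and 4.03 TPM), an RNA-binding protein and a demethylase, were not called lower after Ex-4 against CON and were among the 5 largest differences in favour of Ex-4. Pde4b and Dusp6 ran against the general order, with 6.98 and 6.46 and 3.99 and 3.5 TPM after Ex-4 and 2.14 and 2.23 and 1.07 and 1.01 TPM after FSK. The agents were given at different concentrations and act at different steps. The split of this contrast depends on scaling. Median centring left 93 higher and 196 lower, and ERCC scaling 409 higher and 115 lower. ERCC scaling moves the median of all genes from 0.08 to 0.26 on the log2 scale, and the genes named as lower with Ex-4 here differ by more than that shift.

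By 8 h of Ex-4 all 3 NR4A genes and 7 of 10 AP-1 genes were lower than at 1 h. Over all genes, 291 were higher at 8 h than at 1 h in Med14 S983A cells and 333 lower, 2.83% and 3.24% of those tested and 6.07% in all. No CON was taken at 8 h or 16 h, so longer culture and longer Ex-4 cannot be told apart. The largest drops were those of Nr4a3, Fosl2, Fosb, Nr4a1 and Rgs2. Nr4a3 went from 35.7 and 35.2 TPM at 1 h to 1.38 and 1.75 TPM at 8 h (-3.83 ± 0.11, adjusted p = 2.91e-19) and stood at 1.93 and 1.36 TPM at 16 h. Fosl2 was at 7.05 and 8.83 TPM at 8 h and 11.3 and 11.4 TPM at 16 h, above its CON levels of 1.35 and 1.57 TPM in every library. Crem (34.1 and 36.6 TPM at 8 h, 38.8 and 35.9 TPM at 16 h) and Id4 (93.7 and 90.2 and 58.1 and 51.1 TPM) also stayed above CON in every library, whereas Dusp1 (18.1 and 17.1 and 16.9 and 15.9 TPM) overlapped its CON levels of 17.3 and 16.9 TPM. Ephb3 kept 17 and 17.4 TPM at 8 h and 14.4 and 12.4 TPM at 16 h, and Irs2 61.6 and 61.8 and 53 and 48.6 TPM. Txnip remained low, at 13.5 and 13.1 TPM at 8 h and 5.93 and 4.49 TPM at 16 h. Myc turned from its low at 1 h to 63.6 and 63.6 TPM at 8 h (2.12 ± 0.05, adjusted p = 3.86e-21) and 115 and 119 TPM at 16 h, which exceeds its CON levels in every library. Some genes with no call at 1 h were higher at 8 h than at 1 h. Gcg, the glucagon precursor, was at 6.98 and 6.97 TPM at 1 h and 38.5 and 41.9 TPM at 8 h, Fyb1, an adaptor protein of immune cells, at 1.3 and 1.28 and 10.9 and 11 TPM, and Gucy2c, a receptor guanylyl cyclase, at 5.18 and 2.85 and 20.9 and 24.3 TPM. Of the phosphodiesterases 6 of 16 were higher at 8 h than at 1 h and 1 was lower. Among the 6 were Pde1c (6.75 and 5.87 to 26.9 and 26.9 TPM) and Pde10a (8.68 and 7.61 to 25.1 and 24.8 TPM, 1.51 ± 0.09). Of 24 genes of endoplasmic reticulum folding and the unfolded protein response, 16 were higher at 8 h than at 1 h. None was lower, and the median difference was 0.73.

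**Figure D5:**
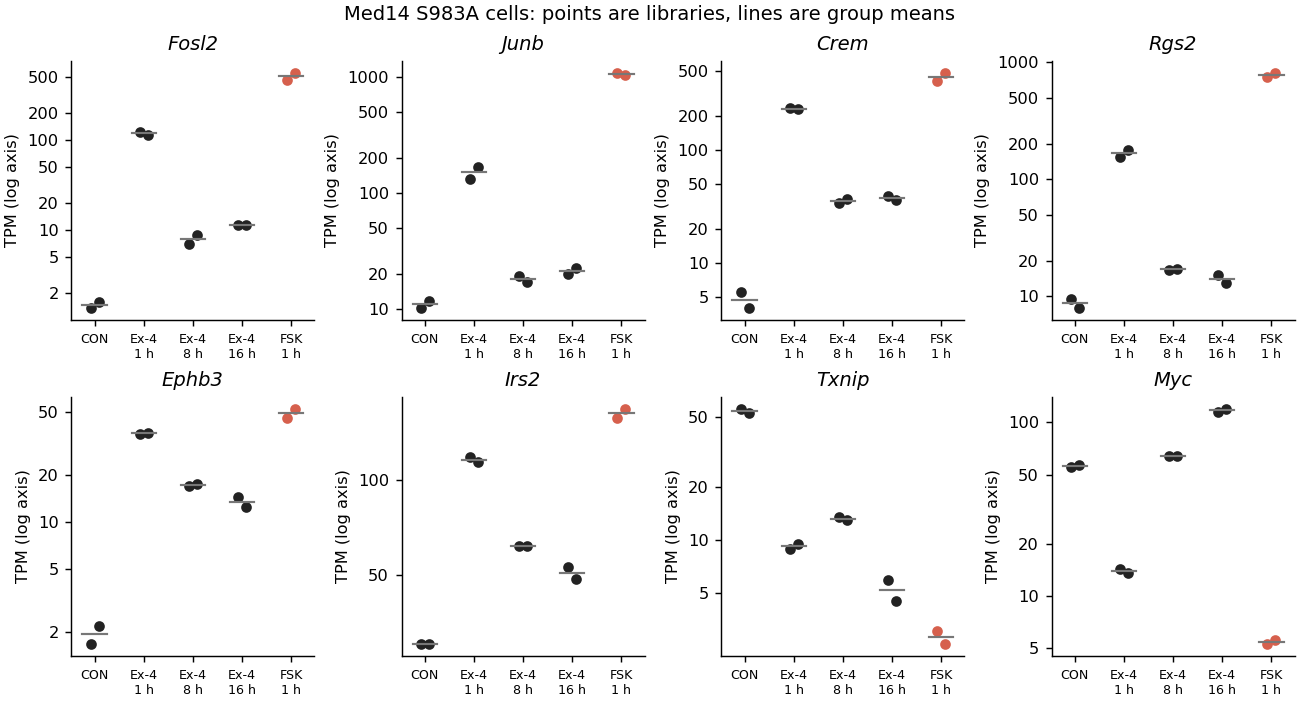
TPM (vertical log axes) of 8 genes in each Med14 S983A library of CON, of Ex-4 for 1 h, 8 h and 16 h and of FSK for 1 h, with 1 point per library and a line at the group mean. Fosl2, Junb, Crem and Rgs2 peak at 1 h of Ex-4 and are higher still with FSK, Txnip stays low through 16 h, and Myc falls to 14.2 and 13.5 TPM at 1 h and reaches 115 and 119 TPM at 16 h.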

How the data were processed

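RNA-seq of INS-1 cells was deposited by the authors as TPM per RefSeq transcript and as ERCC counts. Per the methods and the submitters' notes, reads of a directional library kit were aligned with STAR 2.5.3a to rn6 plus ERCC and TPM was computed over exons with HOMER 4.11.1. The deposited TPM is scaled to a common total, so a shift of all RNA is not seen in it. For each of 17455 symbols the transcript with the highest mean TPM was kept, and ERCC rows were dropped. TPM times exonic length gave whole reads for 100.0% of 105446 values within 0.05 reads, scaled by the deposited ERCC count. limma 3.58.1 in R 4.3.3 was fitted to log2(TPM + 1) of all 28 libraries with 14 group means, and p-values were adjusted over 10275 genes by Benjamini-Hochberg. On simulated data limma recovered 99% of genes changed 2-fold, with 0 wrong calls among 10274 genes. The simulated counts held no shift of scaling, and unchanged genes also had to pass the fold minimum to be called. The simulation therefore cannot show how the calls depend on scaling. Alternatives used edgeR 4.0.16, DESeq2 1.42.0, other scalings, filters and left-out libraries. Named genes were those the study discusses, called list members, and the 10 largest rises and falls (5 in the other contrasts) among genes averaging 5 TPM or more in the contrast's own libraries. The comparison and the gene lists were chosen with earlier results of these data known. Some results are not reported here.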

Additional observations from a re-analysis of the deposited data

Results flagged for a closer look

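The response to 1 h Ex-4 differed between Med14 S983A and WT cells by the interaction test in 35 genes with a more positive log2 change in the mutant and 34 with a more negative one. Of those averaging 5 TPM or more over the libraries of the contrast, the largest positive differences in log2 change were those of Ephb3 (3.62 ± 0.12), Crem (1.46 ± 0.12), Id4 (1.21 ± 0.09), Errfi1 (1.13 ± 0.06) and Hbegf (1.01 ± 0.09). The largest negative differences were those of Cebpd (-2.12 ± 0.11), Myc (-1.30 ± 0.07), Sertad2 (-1.27 ± 0.17), Gem (-1.13 ± 0.12) and Pim1 (-1.07 ± 0.12). All 10 kept their call and direction in every alternative listed for this contrast. Each group had 2 libraries, and a difference between clones cannot be told apart from one due to the edit.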

How the results depend on the processing

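In the comparison of 1 h Ex-4 with CON, the counts of 209 higher and 103 lower genes became 700 and 1992 with no fold minimum. The lower count was 187 with a pseudocount of 0.1 TPM, 166 with edgeR on recovered fragments and 196 with edgeR and ERCC library sizes, and the other counts stayed within 1.5 times of 209 and 103, with 197 to 214 higher and 106 to 135 lower when single libraries were left out. The difference between genotypes (35 and 34) became 90 and 69 with no fold minimum. Against FSK, 149 higher and 162 lower became 2421 and 465 with no fold minimum, and the higher count was 249 with a pseudocount of 0.1, 93 after median centring, 409 after ERCC scaling and 659 with edgeR and ERCC library sizes. At 8 h against 1 h, 291 and 333 became 2911 and 2195 with no fold minimum, and edgeR with ERCC library sizes gave 441 higher. The cause of these shifts was not tested, beyond the fold minimum itself.

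Replicate numbers showed little pairing of the mutant CON and 1 h Ex-4 libraries, since deviations of same-numbered ones correlated at 0.0745. Over 91 pairs of groups the values ran from -0.280 to 0.283, and 17 exceeded 0.1. The highest was that of WT CON with mutant 1 h Ex-4, and WT CON with WT 1 h Ex-4 gave 0.136. These groups all enter the difference between genotypes. With the replicate block 208 genes were higher and 103 lower in the main comparison, 35 and 32 in the difference between genotypes, 149 and 162 against FSK and 291 and 333 at 8 h against 1 h.

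Signs turned for genes without a call, or at low levels. Against CON, Glp1r was at 0.016 after median centring, 0.0053 with edgeR and 0.037 with DESeq2, and Ins1 at 0.0070 after median centring and 0.026 with DESeq2. When single libraries were left out, Pde10a ranged from -0.029 (without 1 h Ex-4 replicate 1) to 0.141, Osbpl6 from -0.097 (without 1 h Ex-4 replicate 1) to 0.12, with -0.018 without CON replicate 2, and Ins1 from -0.106 to 0.021. For the difference between genotypes, with a pseudocount of 0.1, edgeR, edgeR with ERCC sizes and DESeq2 in turn, Ccdc184 was at 0.27, 1.18, 1.2 and 1.26 and Uncx at -0.33, -1.07, -1.06 and -1.07. With edgeR, edgeR with ERCC sizes and DESeq2, Gprc5a was at 0.55, 0.56 and 0.62 and Kdr at 0.171, 0.18 and 0.205, while Dact2 was at -0.0048 with edgeR and -0.0088 with DESeq2 and Fosl1 at 0.027 with DESeq2. Alternatives on the share of motifs among called genes were not run, since too few of these genes had a promoter entry. With 2 libraries a group, genes near 1 TPM are the least certain.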
